A study of Mus musculus with 8 samples.

Results

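Cells carrying RNA of several monocyte and macrophage genes were picked from single-cell libraries of mouse deep cervical lymph nodes, which drain the brain. A kept barcode (at least 500 genes, at most 10% mitochondrial UMIs) was a member if it had no UMI of Cd3e, Cd3d, Fscn1 or Siglech and fewer than 2 UMIs of Cd79a. It also needed at least 1 UMI of 3 or more of Lyz2, Csf1r, Adgre1, Cd68, C1qa, C1qb, Fcgr3 and Ms4a7. A UMI is a molecular tag that counts 1 captured RNA molecule. Of 49060 kept barcodes, 50 were members, a share of 0.102% (95% Clopper-Pearson interval 0.0757 to 0.134%). There were 10 in the depleted anti-CTLA-4 library, 10 in the depleted isotype library, 9 in the anti-CTLA-4 library, 7 in the isotype library and 14 in the saline control library.

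All mice were C57BL/6, and live immune cells were sorted by flow cytometry at day 20 after an injection into the brain. Depleted mice had received anti-CD20, an antibody that removes B cells, carried GL261 glioma cells, a mouse glioma line, and were given either anti-CTLA-4, which blocks an inhibitory receptor of T cells, or isotype control IgG. The anti-CTLA-4 and isotype mice were wild-type, without anti-CD20, and carried the same glioma cells. The saline control mice had been injected with DPBS, a buffered salt solution, without tumour cells, and their treatment is also given as DPBS. The sources used here state no ages, sexes or number of mice per library. Each group was 1 library, so no p-value can be had and every interval covers counting error only. The 5 libraries held 54715065 to 63497466 UMIs, with median UMIs per kept barcode of 4398 to 6079. The members held 552548 UMIs in all. Their median was 10433.5 UMIs (2020 to 32148), above that of all barcodes in every library.

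Monocytes are blood cells made in the bone marrow. In mice, classical monocytes carry much Ly6C and the receptor CCR2 and enter inflamed tissue, whereas non-classical monocytes patrol the vessel wall. Macrophages are resident phagocytes that take up dead cells and particles and, in lymph nodes, line the sinuses and the medulla. Many make the complement protein C1q. Conventional dendritic cells, which present antigen to T cells on MHC class II, share several of these genes with them, among them Csf1r, Cd68 and Lyz2.

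The rule's own genes describe the members and test nothing. Cd68, which codes for a lysosomal glycoprotein, was found in 47 of the 50 cells, Csf1r, the receptor for the growth factor CSF1, in 46, and Lyz2, lysozyme, in 42. Adgre1, the gene of the F4/80 antigen, was found in 29 cells and Fcgr3, a low-affinity IgG receptor, in 15. C1qa was found in 4 cells, C1qb in 3 and Ms4a7 in 3. The macrophage side of the proposed label thus rested on few cells, and no member had a UMI of Cd163, Marco, Cd5l or Timd4, which mark tissue or sinus macrophages. Siglec1, the sinus macrophage receptor CD169, had 2 UMIs over 2 cells, and the list of 8 sinus macrophage genes reached 27 UMIs in total. Outside the members, T cell barcodes (median 5824 UMIs) had a UMI of Lyz2 in 0.152% of cells, of Csf1r in 0.226% and of Cd68 in 1.60%.

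Many members sat at the threshold. Of 1210 kept barcodes that passed the exclusions, 1004 had none of the 8 genes, 108 had 1, 48 had 2, 24 had 3, 15 had 4, 9 had 5 and 2 had 6. The 48 barcodes just outside had Flt3, a growth factor receptor of dendritic cells, in 79.2% of cells and H2-Ab1, an MHC class II chain, in 89.6%. Of the 24 members with exactly 3 genes, 66.7% had Flt3 and 91.7% had H2-Ab1. Of the 26 members with 4 or more, 30.8% had Flt3 and 73.1% had H2-Ab1. Ace, a gene of non-classical monocytes in mice, was in 0 of the 48 barcodes outside, in 4 of the 24 and in 9 of the 26. Another 25 barcodes had 3 of the 8 genes and were left out, 14 of them for a T cell gene, 6 for Cd79a, 11 for Fscn1 and 2 for Siglech, with some left out for more than 1 reason.

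Clustering of the 50 cells separated 20 cells (cluster 1) from 30 cells in clusters 2, 3 and 4, and the same 20 cells formed 1 cluster at a coarser resolution. Cluster 1 had the higher level of 17 of the 20 genes of the classical and non-classical monocyte lists and is called monocyte-like. Its leading genes included the monocyte genes Ly6c2, Hp and Gngt2. At a finer resolution, with 10 clusters, 18 cells were monocyte-like by the same lists, all 18 among these 20. Clusters 2, 3 and 4, with 11, 10 and 9 cells, had higher levels of dendritic genes instead, 9, 11 and 12 of those on the cDC1 and cDC2 lists, and of 4, 1 and 1 monocyte genes. They are called by number. The name monocytes and macrophages thus matched at most the 20 cells of this cluster and 3 further cells with C1q genes. Of the 20, 1 cell carried mostly neutrophil genes and 2 had as much MHC class II as the dendritic cells. Since the same cells formed the clusters, the levels that follow describe the clusters and are no test.

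**Figure D1:**
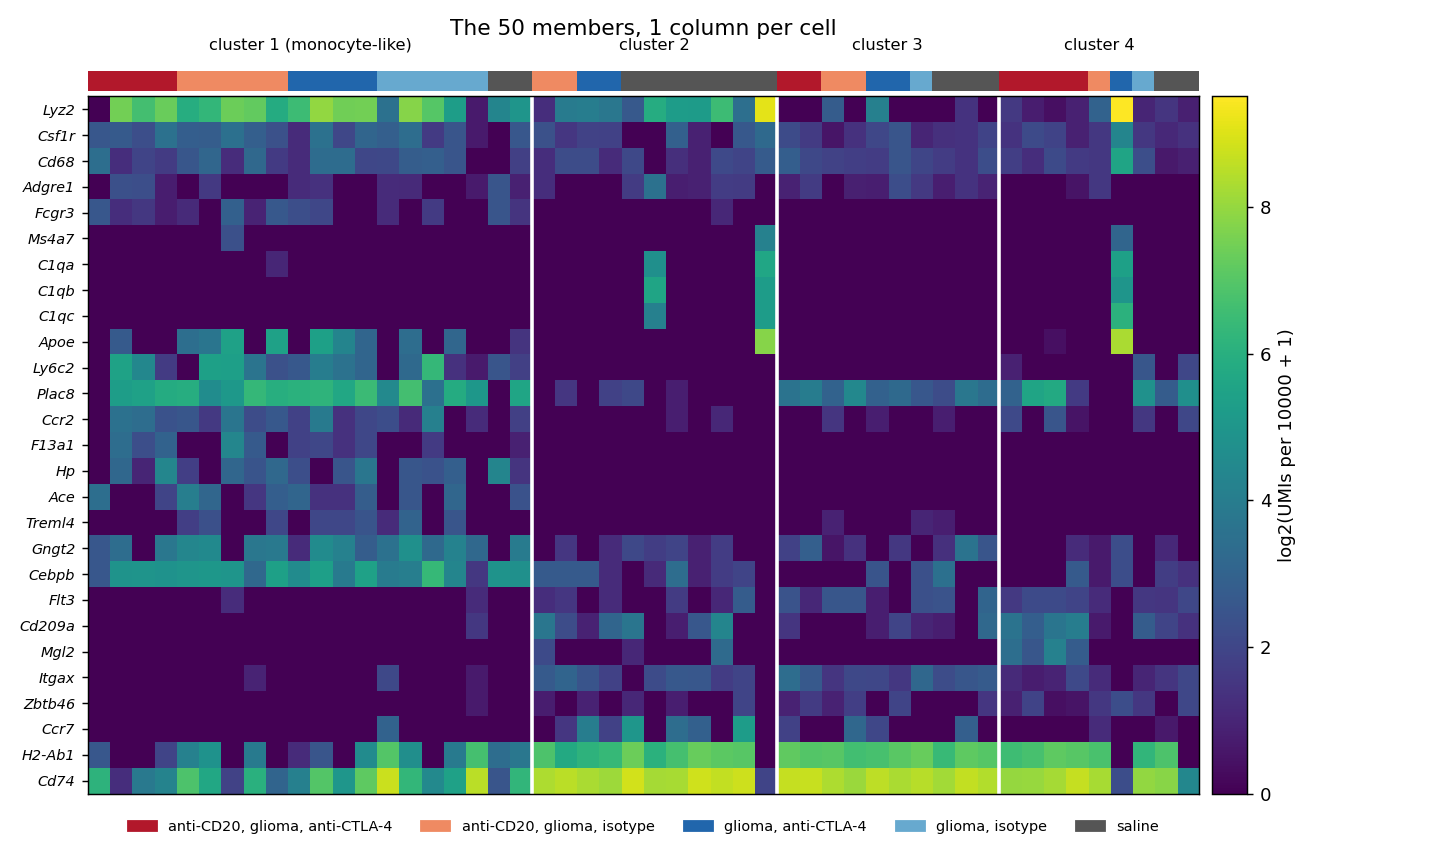
Each column is 1 of the 50 members, grouped by cluster, with the colour bar above giving the library, and each row is 1 gene on a log2(UMIs per 10000 + 1) scale. Ly6c2, F13a1, Hp and Ace lie mostly in the monocyte-like cluster of 20 cells, and H2-Ab1 and Cd74 fill clusters 2 to 4. C1qa, C1qb and C1qc share 3 columns, and 1 further column has 1 UMI of C1qa alone.

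Genes of classical monocytes stood out in the monocyte-like cluster. All levels are UMIs per 10000 UMIs of the cells summed, with the 20 monocyte-like cells first and the other 30 second. Ly6c2, the Ly6C antigen, was at 12.02 against 0.29, and 17 of the 20 cells had it against 3 of the 30. Ccr2 was at 4.82 against 0.99, and Plac8 at 49.8 against 11.8. Chil3, a chitinase-like protein, F13a1, the A subunit of coagulation factor XIII, Fn1, fibronectin, Hp, haptoglobin, and Vcan, versican, were at 4.22, 3.03, 2.38, 5.12 and 0.65 in the monocyte-like cells and had no UMI in the other 30. S100a4 was the exception among the 9 classical monocyte genes, at 16.0 against 16.6. Ly6c2 is not a monocyte gene alone in these nodes, since T cells held it at 3.41 and Siglech barcodes at 30.5, beside 3.85 over all members. Nor is Plac8, at 24.2 in Siglech barcodes beside 23.4 over all members, and found in 10 of the 10 cells of cluster 3.

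Genes of non-classical monocytes were in the same 20 cells. Ace, the angiotensin-converting enzyme, was at 3.39 in 13 of the monocyte-like cells and had no UMI in the other 30. Treml4, a receptor of the TREM family, was at 1.49 in 9 cells against 0.10 in 3 cells, and Gngt2 at 11.6 against 1.27. Ace or Treml4 was in 14 of the 20 cells, and 11 of those also had at least 1 UMI of Ly6c2, while 6 of the 20 had Ly6c2 without Ace or Treml4. By level, the cells with 38, 32 and 31 UMIs of Ly6c2 had neither Ace nor Treml4, and the cell with the most Ace, 13 UMIs, had no Ly6c2. The separation was not complete. A depleted isotype cell with 21 UMIs of Ly6c2, among only 5059 in all, had 4 of Ace and 2 of Treml4. A depleted anti-CTLA-4 cell with 21 of Ly6c2 had neither. Nr4a1, which mouse non-classical monocytes need, was no higher in the monocyte-like cells, at 7.32 against 8.79.

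The start regions of Ace and Treml4 are shown because, among the members, both genes were found mostly in the monocyte-like cells. Capitals mark GAGGAA, on either strand (TTCCTC on the other), which is the core of the box bound by PU.1, the myeloid transcription factor coded by Spi1. The sequences are RefSeq's, on GRCm38.p6, from 250 bases before to 50 bases after the start of the gene, and the first of the 2 listed starts of Ace is given.
Ace, chr11:105967698-105967997, plus strand: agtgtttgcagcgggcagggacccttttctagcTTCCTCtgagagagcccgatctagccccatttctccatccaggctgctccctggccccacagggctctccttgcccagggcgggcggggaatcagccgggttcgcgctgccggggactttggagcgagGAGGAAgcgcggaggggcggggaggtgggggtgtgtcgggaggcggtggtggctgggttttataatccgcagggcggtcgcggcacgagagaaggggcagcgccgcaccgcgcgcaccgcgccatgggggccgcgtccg
Treml4, chr17:48264045-48264344, plus strand: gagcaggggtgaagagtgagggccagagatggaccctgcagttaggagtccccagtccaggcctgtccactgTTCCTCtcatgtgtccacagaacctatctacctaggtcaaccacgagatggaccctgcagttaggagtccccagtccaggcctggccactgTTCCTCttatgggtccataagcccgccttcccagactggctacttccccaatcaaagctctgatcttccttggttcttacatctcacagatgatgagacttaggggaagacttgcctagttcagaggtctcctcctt
Each of these windows held 2 matches, at 217 and 89 bases before the start of Ace and at 178 and 87 bases before that of Treml4. The box was in 28.3% of the 32851 promoter windows of the same length. The windows of Lyz2, Flt3, Cd209a and Itgax held none, which says only that these letters are not in those windows. Spi1 itself was found in 20 of the 20 monocyte-like cells at 8.39 and in 28 of the other 30 at 6.89.

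Other myeloid genes were also unevenly shared. Cebpb, a transcription factor of monocytes and granulocytes, was at 24.6 in the monocyte-like cells and at 2.19 in the others. Of the rule's genes, Lyz2 was at 99.8 against 19.0, Csf1r at 5.65 against 2.37 and Fcgr3 at 1.67 against 0.03, while Adgre1 was close, at 1.011 against 0.99. The type I interferon response list summed to 39.7 against 11.5, led by Ifi27l2a at 20.7 against 1.85, with Irf7, an interferon-induced transcription factor, at 3.75 against 0.65. Lysosome genes summed to 147 against 86.7 and Fc receptor genes to 66.9 against 36.9, and Fcgr1 and Fcgr4, activating IgG receptors, had no UMI outside the monocyte-like cells. The lipid handling list summed to 23.3 against 9.16, with Apoe, which carries lipid, at 8.92 in 11 cells against 4.16 in 3 cells.

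MHC class II genes went the other way. The 12 genes of the list summed to 246 UMIs per 10000 in the monocyte-like cells and 749 in the others, with H2-Ab1 at 28.3 against 111 and Cd74, the invariant chain, at 115 against 316. Cell by cell, only H2-Aa, H2-Ab1, H2-Eb1 and Cd74 were summed. By that sum 21 members had 1.35 to 212 UMIs per 10000 and 29 had 482 to 1138, and none lay in between. The higher set held 27 of the 30 cells of clusters 2 to 4 and 2 of the 20 monocyte-like cells. Those 2 were both from the isotype library, with sums of 688 and 928. They had 8 of the 20 monocyte genes each, and 10 and 8 genes of the cDC1 and cDC2 lists. Cells of clusters 2 to 4 had up to 8 monocyte genes and a median of 9.5 dendritic genes. The other 18 monocyte-like cells had medians of 12 and 4. Neither of the 2 had a UMI of Ace, Hp, F13a1 or Chil3, so their place in the monocyte-like cluster is uncertain. Ciita, the master regulator of MHC class II, was at 0.36 in 2 monocyte-like cells and 1.92 in 20 of the others.

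**Figure D2:**
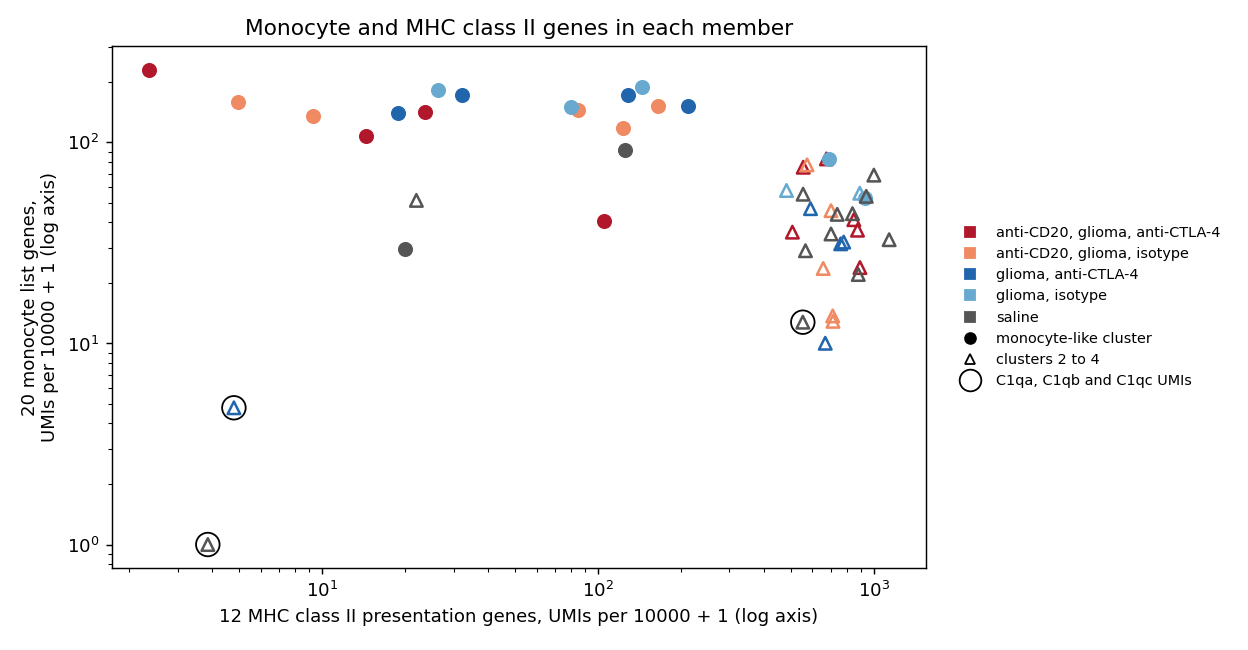
Each symbol is 1 of the 50 members, on log axes with 1 added. Across are summed UMIs per 10000 of H2-Aa, H2-Ab1, H2-Eb1 and Cd74, although the axis title names 12 genes. Upwards are those of the 20 monocyte list genes. Filled circles, the monocyte-like cells, lie mostly at 212 or below across, open triangles of clusters 2 to 4 mostly at 482 or above, and large rings mark the 3 cells with C1q genes.

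Dendritic genes marked clusters 2 to 4, each with its own emphasis. Flt3 was at 2.52 in 22 of the 30 cells against 0.18 in 2 monocyte-like cells, and Cd209a, a lectin of type 2 conventional dendritic cells and of dendritic cells derived from monocytes in mice, at 5.33 in 22 cells against 0.18 in 1. Zbtb46, a transcription factor of conventional dendritic cells, was at 1.015 against 0.06, and Itgax, the CD11c integrin, at 3.07 against 0.42. Flt3 or Cd209a was in 26 of the 30 cells and in 2 of the 20. Cluster 2 was led by Ccr7, the receptor that guides cells to the T cell zone, at 11.1 against 1.74 in cluster 3 and 0.19 in cluster 4. Cluster 3 had the most Il1r2, a decoy receptor for interleukin 1, at 9.04, and cluster 4 the most Cd209a, at 8.14, Mgl2, a lectin, at 6.46 in 4 cells, and Cd7 at 7.75. The saline control gave 7 of the 11 cells of cluster 2, and the depleted anti-CTLA-4 library 4 of the 9 of cluster 4. Those 4 cells held all 100 Mgl2 UMIs of cluster 4, so cluster and library cannot be told apart there. Lyz2 was at 43.9 in cluster 2, of which 2 cells carried C1q genes, at 2.98 in cluster 3 and at 14.0 in cluster 4. In cluster 4, the cell with C1q genes held 192 of the 217 Lyz2 UMIs.

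Among the members, macrophage-type complement RNA was nearly confined to 3 cells. C1qa, C1qb and C1qc, the chains of C1q, had 11, 8 and 18 UMIs in a cell of the anti-CTLA-4 library. In 1 cell of the saline control they had 17, 13 and 13 UMIs, and in another 22, 39 and 14. The only other member with a C1q UMI, a monocyte-like cell of the depleted isotype library, had 1 UMI of C1qa. T cells held 0 UMIs of C1qa and B cells 2. Barcodes with a Fscn1 UMI, which the rule left out, held 61 UMIs of C1qa, 66 of C1qb and 34 of C1qc. Per 10000 this was 0.251, 0.271 and 0.140, against 0.923, 1.09 and 0.814 in the members. C1qa and C1qb were each found in 2 of those 296 barcodes. Of all kept barcodes, 4 had both C1qa and C1qb, 3 of them members. These cells were not alike. The anti-CTLA-4 cell and the first saline control cell had 192 and 197 UMIs of Lyz2, 83 and 76 of Apoe and none of H2-Ab1, with only 2640 and 3508 UMIs in all. The other saline control cell had 50 UMIs of Lyz2, none of Apoe, none of Csf1r or Cd68 and 57 of H2-Ab1, with 8502 UMIs. None of the 3 had a UMI of Siglec1 or Mertk, a receptor for dead cells, and Vcam1, an adhesion molecule of medullary macrophages, was found in the anti-CTLA-4 cell at 4 UMIs.

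The C1q genes sit side by side on mouse chromosome 4, on GRCm38.p6, within 18719 bases at chr4:136880126-136898844, in the order C1qb, C1qc, C1qa. The start regions of C1qb and C1qc are shown because the 3 genes occurred in the same cells, with the PU.1 box again in capitals.
C1qb, chr4:136886151-136886450, minus strand: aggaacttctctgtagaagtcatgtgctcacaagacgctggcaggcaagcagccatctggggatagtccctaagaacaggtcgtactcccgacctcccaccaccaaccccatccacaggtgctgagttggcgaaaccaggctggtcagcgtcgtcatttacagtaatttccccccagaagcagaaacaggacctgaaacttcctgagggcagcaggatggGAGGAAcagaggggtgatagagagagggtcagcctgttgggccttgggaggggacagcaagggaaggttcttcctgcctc
C1qc, chr4:136892865-136893164, minus strand: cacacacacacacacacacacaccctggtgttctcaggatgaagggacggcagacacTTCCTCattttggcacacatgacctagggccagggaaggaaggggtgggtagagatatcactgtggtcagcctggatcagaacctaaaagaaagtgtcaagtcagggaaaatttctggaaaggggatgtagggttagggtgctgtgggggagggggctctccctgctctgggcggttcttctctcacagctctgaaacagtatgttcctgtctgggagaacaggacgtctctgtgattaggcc
Each window held 1 match, 30 bases before the start of C1qb and 193 bases before that of C1qc. Of the 10 genes looked up for this purpose 9 matched, all but C1qa.

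Other single cells stood apart from their labels. A saline control cell in the monocyte-like cluster had 240 UMIs of S100a8, 323 of S100a9 and 83 of Retnlg, genes of neutrophils, among 2108 UMIs in all, and 4 of Lyz2. It gave most of the neutrophil list in the members, which summed to 49.2 UMIs per 10000 in the saline control and to 1.33 to 6.70 in the other libraries. A depleted isotype cell in cluster 3 had 10 UMIs of Xcr1, 10 of Clec9a and 38 of Wdfy4, genes of type 1 conventional dendritic cells. A saline control cell in cluster 3 had 7 UMIs of Ncr1 and 43 of Gzma, genes of natural killer cells. Eosinophil and erythroid genes had no UMI in any member, and among B cell genes Cd79a, Ms4a1, Pax5, Ighd and Fcmr had none. Of the 7 microglia genes, 5 were detected with 13 UMIs in total, and of the 8 glial and glioma genes Mbp alone.

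Members were rare in every library. They made up 0.111% (0.0532 to 0.204%) of kept barcodes in the depleted anti-CTLA-4 library, 0.112% (0.0536 to 0.205%) in the depleted isotype library, 0.0769% (0.0352 to 0.146%) in the anti-CTLA-4 library, 0.0730% (0.0294 to 0.150%) in the isotype library and 0.143% (0.0781 to 0.240%) in the saline control. These intervals overlap throughout. Isotype over saline control gave a ratio of shares of 0.511 (0.206 to 1.27), and anti-CTLA-4 over isotype gave 1.05 (0.392 to 2.83). Depletion gave 1.53 (0.583 to 4.02) in mice given isotype antibody and 1.44 (0.586 to 3.55) in mice given anti-CTLA-4. Depleted anti-CTLA-4 over depleted isotype gave 0.992 (0.413 to 2.38). Every interval holds 1, so a difference inside these bounds was not detectable at these cell numbers. Depletion also removed B cells from the denominator, with 90 and 58 B cell barcodes in the depleted anti-CTLA-4 and depleted isotype libraries against 5269 and 4752 in the libraries without anti-CD20. Per T cell barcode the depletion ratios were below 1, 0.681 (0.259 to 1.79) with isotype antibody and 0.685 (0.279 to 1.69) with anti-CTLA-4.

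**Figure D3:**
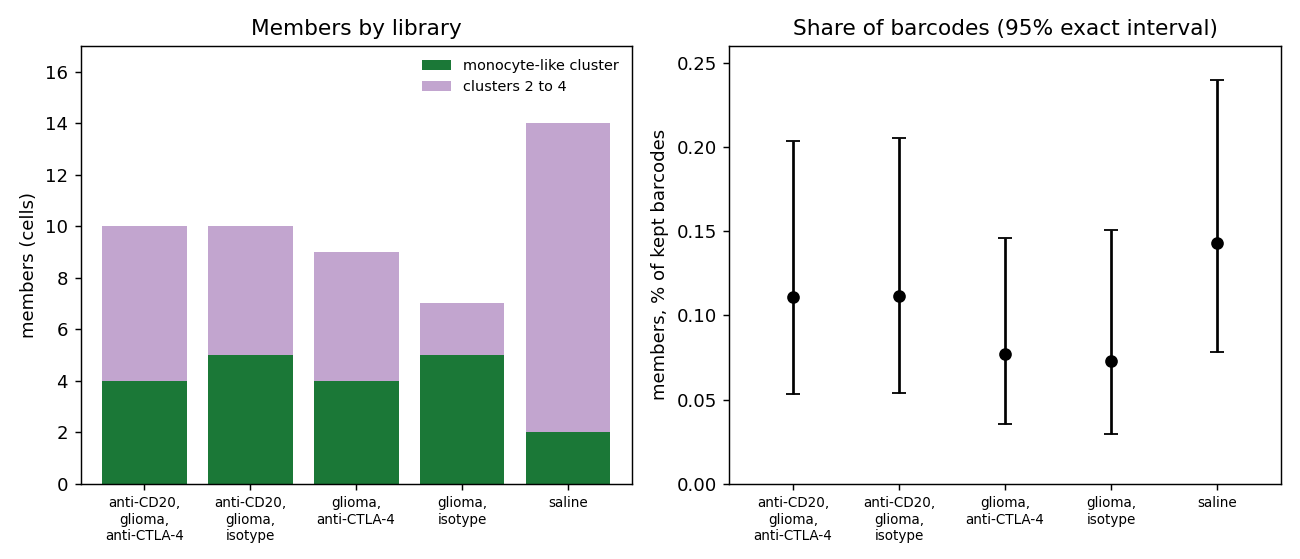
The left panel gives the members of each library as stacked bars (monocyte-like cluster and clusters 2 to 4), and the right panel their share of kept barcodes with 95% exact intervals. The saline control has 14 members, of which 2 are monocyte-like, and the isotype library 7, of which 5 are.

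**Figure D4:**
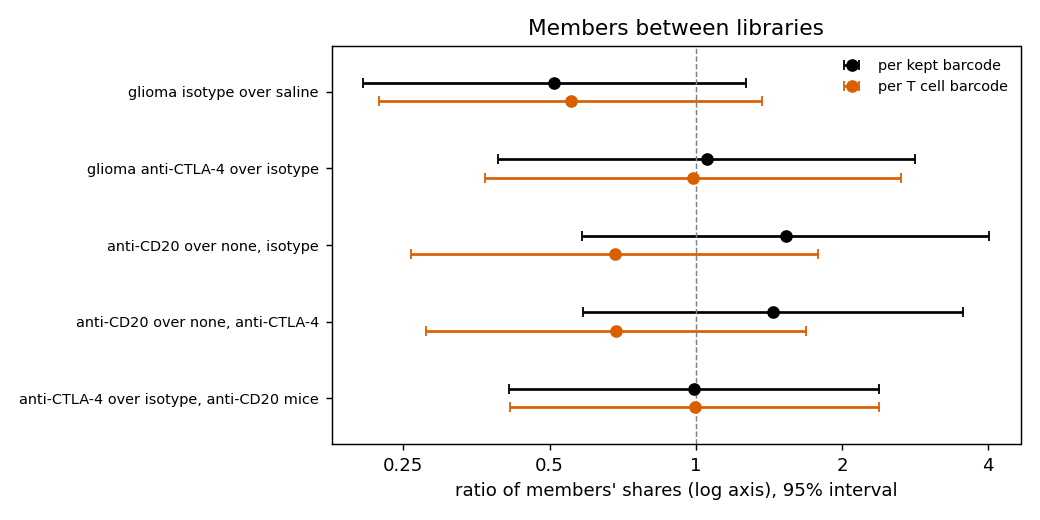
Points are ratios of the members' shares between libraries on a log axis, with 95% intervals, per kept barcode (black) and per T cell barcode (orange). All 10 intervals cross 1, and the points for anti-CD20 move from above 1 to below 1 when T cells are the denominator.

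The clusters were unevenly spread over the libraries, given here as a description since the same cells made the clusters. Monocyte-like cells were 4 of 10 members in the depleted anti-CTLA-4 library, 5 of 10 in the depleted isotype library, 4 of 9 in the anti-CTLA-4 library, 5 of 7 in the isotype library and 2 of 14 in the saline control. As shares these were 40% (12.2 to 73.8%), 50% (18.7 to 81.3%), 44.4% (13.7 to 78.8%), 71.4% (29.0 to 96.3%) and 14.3% (1.78 to 42.8%). The 4 glioma libraries together had 18 of 36. In the saline control 1 of the 2 was the cell with neutrophil genes, and in the isotype library 2 of the 5 were the cells with much MHC class II. Cells of clusters 2 to 4 were 0.0209% of kept barcodes in the isotype library and 0.122% in the saline control, a ratio of 0.170 (0.0382 to 0.761) that rests on 2 against 12 cells. Monocyte-like cells were 0.0522% and 0.0204% of barcodes in those libraries, a ratio of 2.56 (0.496 to 13.2). In the other 4 comparisons the intervals of both ratios hold 1. Fewer than 30 cells of either kind were found in any library, so values within a kind are given only as a side check on comparisons over all members.

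Levels of the defining genes in the few monocyte-like cells of each library are given as values. Lyz2 was at 137 UMIs per 10000 in 4 depleted anti-CTLA-4 cells, 103 in 5 depleted isotype cells, 168 in 4 anti-CTLA-4 cells, 55.3 in 5 isotype cells and 28.6 in 2 saline control cells. Ly6c2 was at 16.4, 16.6, 9.51, 9.19 and 2.86 in the same order, and Ace at 1.76, 6.02, 4.39, 1.76 and 3.58. F13a1 was at 6.16, 5.05 and 2.56 in the depleted anti-CTLA-4, depleted isotype and anti-CTLA-4 cells, and at 0.20 and 0.72 in the isotype and saline control cells. H2-Ab1 was at 1.47, 10.3, 6.95, 76.4 and 12.2, where the isotype value comes mostly from the 2 cells with much MHC class II. Those 2 cells, with 15924 and 15863 UMIs, were the deepest monocyte-like cells. They had 17 and 1 UMIs of Lyz2, 0 and 1 of Ly6c2 and none of Ace. The summed isotype levels of Lyz2, Ly6c2 and Ace are thus lowered by them. Another isotype cell held 38 of the 47 Ly6c2 UMIs.

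Gene levels over all members of a library were compared next, for genes with at least 50 UMIs over both libraries and UMIs in at least 5 cells of the higher one. A gene was called where its ratio was at least 2 or at most 0.5 with an exact interval that leaves out 1. For isotype over saline control 36 of 556 genes were called higher, 6.47%, and 18 lower, 3.24%. With median-ratio size factors that split was 23 higher and 29 lower, and the median log2 ratio of all genes moved to -0.19, against -0.01. For anti-CTLA-4 over isotype 19 of 391 were called higher, 4.86%, and 17 lower, 4.35%. For depleted isotype over isotype 14 of 490 were called higher, 2.86%, and 34 lower, 6.94%. For depleted anti-CTLA-4 over anti-CTLA-4 41 of 600 were called higher, 6.83%, and 28 lower, 4.67%. For depleted anti-CTLA-4 over depleted isotype 33 of 730 were called higher, 4.52%, and 26 lower, 3.56%. Most called genes had over 25% of their UMIs in the higher library in 1 cell: 42 of 54, 28 of 36, 38 of 48, 54 of 69 and 46 of 59 in that order. Whether such a ratio reflects the library or the mix of its few cells was not tested.

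Of the rule's genes, Lyz2 was at 476 UMIs in the depleted anti-CTLA-4 library, 464 in the depleted isotype library, 699 in the anti-CTLA-4 library, 284 in the isotype library and 487 in the saline control. Per 10000 this was 31.6, 41.1, 96.1, 39.7 and 33.6, so the anti-CTLA-4 library stood highest and the other 4 lay close together, with 63.7% of the isotype UMIs in 1 cell. In the anti-CTLA-4 library 1 cell, that with C1q genes, held 27.5% of these UMIs. Csf1r was at 3.32, 3.55, 4.68, 3.63 and 2.49 per 10000. Both genes helped to choose the members, so these levels are a description.

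Glioma isotype against saline control compares mice with tumour and isotype antibody with mice given DPBS, so tumour and antibody cannot be told apart. Ly6e, a Ly6 family surface protein induced by interferon, was at 26.0 UMIs per 10000 in 7 of 7 isotype cells and at 8.22 in 12 of 14 saline control cells, a ratio of 3.16 (2.50 to 4.01). Cybb, the catalytic chain of the phagocyte oxidase, was at 10.6 and 2.97 per 10000, a ratio of 3.57 (2.43 to 5.32). Napsa, an aspartic protease, was at 2.17 (1.59 to 2.95), Pip4k2a, a lipid kinase, at 2.07 and Tmbim6 at 2.08. Vegfa, a growth factor of vessels, had 1 UMI in the isotype library and 55 in 8 saline control cells, a ratio of 0.0368 (0.000915 to 0.214). Nr4a2, an immediate early nuclear receptor, was at 0.190 (0.0671 to 0.436), Trps1, a zinc finger repressor, at 0.311 and Runx3, a transcription factor of lymphocytes and dendritic cells, at 0.319. Ly6c2 was also called higher, at 13.1 (6.20 to 32.0), with 73.1% of its UMIs in 1 isotype cell, and Cd209a lower, at 0.389 (0.176 to 0.774). The 2 libraries differed most in their share of monocyte-like cells. Among monocyte-like cells alone, 5 isotype against 2 saline control cells, the Ly6e ratio was 1.37 (0.924 to 2.11), and among the others, 2 against 12 cells, it was 2.52. Ifi27l2a was called higher, at 7.40 (5.14 to 10.9), with 33.8% of its UMIs in 1 isotype cell. The Cybb ratio was 2.22 and 2.01 in the same cells, of which 1 of the 2 saline control monocyte-like cells is the one with neutrophil genes.

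Anti-CTLA-4 against isotype compares checkpoint blockade with its control in mice with B cells. Actg1, a cytoskeletal actin, was at 47.7 and 21.9 per 10000, a ratio of 2.18 (1.80 to 2.64). Slc25a3, the mitochondrial phosphate carrier, was at 2.58 (1.59 to 4.33), Srgn, serglycin of secretory granules, at 2.04 (1.57 to 2.66) and Plek, pleckstrin, at 2.03. Filip1l was at 0.272 (0.169 to 0.424), Ly6e at 0.476 (0.366 to 0.616) and Cybb at 0.492 (0.324 to 0.736). Among monocyte-like cells alone the ratio of Ly6e turned to 1.00. The 7 isotype cells also stand in the comparisons with the saline control and with the depleted isotype library.

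B cell depletion was compared under each antibody. Under isotype, Slfn2, a gene of the Schlafen family that keeps lymphocytes and myeloid cells quiescent in mice, was at 2.92 (1.45 to 6.49), Plek at 2.11, Gpi1, a glycolytic enzyme, at 2.54 and Dock2, a Rac activator of leukocyte migration, at 2.05. Filip1l was at 0.412 (0.293 to 0.575), Cybb at 0.443 (0.306 to 0.637), Klf2, a transcription factor of quiescence and trafficking, at 0.357 (0.189 to 0.656) and Tmbim6 at 0.476. Under anti-CTLA-4, Jak2, a kinase of cytokine receptors, had 73 UMIs in 7 depleted cells and 4 UMIs in 3 cells of the library without anti-CD20, a ratio of 8.81 (3.30 to 33.2). Zc3h7a was at 4.08 (2.18 to 8.46), Man2b1, a lysosomal mannosidase, at 3.56, Gabarapl2, an autophagy protein, at 3.03, Prcp, a lysosomal peptidase, at 2.75 and Cd47, the signal that protects cells from being eaten, at 2.37 (1.49 to 3.94). Zfand5 was at 0.303 (0.170 to 0.532), Malt1, a protease of NF-kB signalling, at 0.467 and Npc2, which exports cholesterol from lysosomes, at 0.483.

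Anti-CTLA-4 against isotype in depleted mice repeated the antibody comparison with few B cells left. Jak2 was at 3.21 (1.88 to 5.81), Prcp at 3.05 (1.68 to 5.92) and Ube2h, a ubiquitin-conjugating enzyme, at 2.99 (1.47 to 6.71), and Ube2h was at 0.731 among monocyte-like cells alone. Ifi27l2a, an interferon-induced gene, had 50 and 123 UMIs, a ratio of 0.304 (0.215 to 0.426), and Isg15, a ubiquitin-like protein induced by interferon, 18 and 36 UMIs, a ratio of 0.374 (0.200 to 0.677). Dusp1, a phosphatase of stress kinases, was at 0.337 (0.248 to 0.452), Slfn2 at 0.325, Cdk2ap2 at 0.337 and Fyb, an adaptor protein, at 0.434. Of the 3 measured type I interferon genes 2 were called lower (3.56% over all genes, and 4.52% higher), and Bst2, tetherin, was called higher with over 25% of its UMIs in 1 cell.

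Among the gene lists, immediate early and heat shock genes had the most calls in the comparisons with the isotype library, where 1 cell held most of the summed UMIs of 5 of them. For the 12 measured immediate early and heat shock genes 5 were called higher in isotype over saline control (6.47% over all genes), namely Jun, Hspa1a, Hspa1b, Hsp90aa1 and Dnajb1. Called lower were 5 of 12 in anti-CTLA-4 over isotype (4.35% over all genes) and 7 of 12 in depleted isotype over isotype (6.94%), and these 3 comparisons share the isotype cells. The UMIs of Jun, Hspa1a, Hspa1b, Hsp90aa1 and Dnajb1 summed over the 7 isotype cells one by one were 5, 45, 7, 89, 9, 91 and 403, so that 1 cell held 62.1%. That cell was 1 of the 2 monocyte-like cells with much MHC class II. Its lead did not hold for every gene. It had 37 UMIs of Hsp90aa1 against 38 in an isotype cell of cluster 3. Of Hspa8, called lower in depleted isotype over isotype, it had 84 and that cluster 3 cell 68. The median log2 ratios of the list were 0.51, -0.18 and -1.04 in the 3 comparisons, beside -0.01, 0.03 and -0.04 over all genes tested.

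Lists with few measured genes had larger medians. For isotype over saline control these were 1.958 for 3 classical monocyte genes, of which Ly6c2 and Plac8 were called higher, and 1.63 for 2 type I interferon genes. For depleted isotype over isotype the median of 3 cDC2 genes was -1.52, with Tmem176a and Tmem176b called lower. MHC class II genes had medians of -0.14, -0.32, -0.39, 0.36 and 0.38 on the log2 scale in the 5 comparisons in the order above. H2-DMb1, a peptide-loading chain, and Ifi30, a thiol reductase of antigen processing, were called higher in depleted anti-CTLA-4 over both anti-CTLA-4 and depleted isotype, with 54.6% and 40.4% of their UMIs in 1 cell. Of 7 measured cDC2 genes, Cd209a, Cd7, Tmem176a and Tmem176b were called higher in depleted anti-CTLA-4 over depleted isotype (4.52% over all genes), and 51.3% of the Cd7 UMIs were in 1 cell. None of the 10 measured lysosome genes was called for isotype over saline control, and Ctsb, cathepsin B, and Npc2 were called lower among 11 in depleted anti-CTLA-4 over anti-CTLA-4. Several macrophage products were absent. Arg1, arginase, Retnla, Gpnmb, Lyve1 and Il10 of the list on tumour-associated and alternative activation had no UMI in any member. Of the 17 genes of that list 11 were detected, with 445 UMIs in total, at 12.7 per 10000 in the monocyte-like cells and 6.03 in the others. Cxcl13, Pf4 and Ccl12 of the chemokine list had none either, while 12 of its 19 genes were detected with 567 UMIs. Tnf had 4 UMIs in 4 cells. Il1b, interleukin 1 beta, was present in 35 cells, at 8.43, 9.31, 11.4, 13.5 and 19.1 per 10000 from the depleted anti-CTLA-4 to the saline control library.

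Receptor sequencing gave a readout that the rule had not used. A productive immunoglobulin heavy chain contig was assigned to 0 of 9 member barcodes in the anti-CTLA-4 library, 0 of 7 in the isotype library and 1 of 14 in the saline control. The zeros allow shares of up to 33.3% and 42.9%, taking 3 barcodes as the limit of a count of 0. Together this was 1 of 30 members, 3.33% (0.0844 to 17.2%), against 88.0% of B cells and 0.159% of T cells in the same libraries. Ighm RNA was at 1.34 UMIs per 10000 in the members and at 1.89 in T cells, and Igkc had 1 UMI over all members.

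Set beside the excluded dendritic barcodes, the members differed in both directions. Lyz2, which chose the members, was at 43.6 UMIs per 10000 in them, 0.567 in 296 barcodes with a Fscn1 UMI and 0.00844 in 114 barcodes with a Siglech UMI. Of genes that the rule did not use, Cebpb was at 9.01 (8.24 to 9.84), 0.283 and 1.33, Sirpa, an inhibitory receptor that binds CD47, at 3.55, 1.00 and 1.52, and Ccr2 at 2.15, 0.0123 and 0.549. Zbtb46 was at 0.724 (0.517 to 0.986) in the members and 2.09 (1.91 to 2.28) in the Fscn1 barcodes, and Cst3, cystatin C, at 23.5 and 44.5. H2-Ab1 was at 85.7 (83.3 to 88.2) in the members, 28.4 in the Fscn1 and 30.3 in the Siglech barcodes. These pooled values mix the 20 monocyte-like cells, with H2-Ab1 at 28.3 and Cebpb at 24.6, and the other 30, with H2-Ab1 at 111 and Cebpb at 2.19. Ace had 57 UMIs in the members and none in either of the other sets.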

How the data were processed

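Gene expression was measured in 5 single-cell libraries of sorted live immune cells (10x Genomics 5' chemistry, per the labels' protocols), and B cell receptors in 3 of them. The deposited matrices hold whole-number UMI counts per gene and barcode for 32285 genes. Per the file headers the authors' software was Cell Ranger 7.0.1, and the submitters' processing notes add bcl2fastq 2.20.0 and the mm10 build. The receptor tables hold counts of UMIs per contig, per the file headers, and only the presence of a contig was used. No strand or overlap rule of the counting is given in the sources used here, so overlapping genes can share reads.

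Counts were summed over members per library with Python 3.11.15, numpy 2.4.6, scipy 1.17.1 and pandas 2.3.3. Ratios of summed counts have exact conditional binomial intervals at 95%, shares have Clopper-Pearson intervals and ratios of shares have log intervals. A library at 0 was set to 3 counts. The interval code was tested on simulated data. Members were clustered with scanpy 1.11.5 (scaling to 10000, 1000 variable genes without immunoglobulin, T cell receptor, ribosomal and mitochondrial genes, 20 principal components, 15 neighbours, Leiden resolution 1). No doublets were removed for the values reported, and Scrublet scores served as an alternative that takes away 3 members. No 2 members shared a barcode, although 1262 barcodes occurred in at least 2 libraries, 3 of them those of members.

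The named genes were the 6 highest and 6 lowest per comparison by the interval bound nearest 1, with at most 25% of UMIs in 1 cell and left out where the level was under 10% of that in T or B cells. Of these the called ones are given, together with the rule's genes and members of marker and function lists. Members, lists and tests were chosen with earlier results of these data known. Alternatives are given in the closing section.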

Additional observations from a re-analysis of the deposited data

How the results depend on the processing

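The number of members depended on the rule and on depth. With 4 of the 8 genes required there were 26 members, at 0.0444% of barcodes in the depleted anti-CTLA-4 and 0.0342% in the anti-CTLA-4 library. Without Lyz2 and Fcgr3 in the rule there were 29. Thinned to 1500 UMIs, with 649 shallower barcodes left out, 13 remained. Their shares were 0.0447% for depleted anti-CTLA-4, 0.0225% for depleted isotype, 0.0261% for anti-CTLA-4, 0.0212% for isotype and 0.0207% for the saline control. The interval of every ratio of shares held 1 under all 7 alternatives run.

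Counts of called genes moved with the members and the filter, and the cause was not tested beyond fewer or more genes being tested. They are given in the report's order of comparisons (glioma isotype with saline control, antibody in mice with B cells, depletion with isotype antibody, depletion with anti-CTLA-4, antibody in depleted mice), against 54, 36, 48, 69 and 59 as reported. They were 19, 0, 11, 0 and 7 with 4 of the 8 genes, where both zeros stand for 0 genes tested because too few cells were left, and 11, 2, 8, 16 and 23 without Lyz2 and Fcgr3. They were 151, 109, 121, 195 and 190 at 20 UMIs, 21, 13, 19, 26 and 17 at 100 UMIs, and 354, 295, 286, 381 and 394 without the filter. Among monocyte-like cells alone they were 26, 8, 25, 0 and 6 of 133, 122, 236, 0 and 120 genes tested. With so few cells the filter mostly allows calls in 1 direction: 26 higher and 0 lower, 0 and 8, 10 and 15, none tested, 0 and 6. Without UMIs of further lymphocyte genes the last 2 were 33 and 32. Outside the monocyte-like cluster, a setting chosen after seeing the data, the counts for antibody in mice with B cells and for depletion with isotype antibody were 13 and 18. Over all settings, 603 ratios of named genes stayed the same, 209 were weaker, 23 were stronger and 2 crossed 1, both among monocyte-like cells alone. These were Ly6e in anti-CTLA-4 over isotype, at 1.00, so that no difference was left, and Ube2h in depleted anti-CTLA-4 over depleted isotype, at 0.731. Of the list medians 316 stayed the same and 60 moved. No paired analysis was possible because each group was 1 library.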
